A study of Mus musculus with 3 samples.

Results

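The promoters of the adult alpha-globin genes, Hba-1 and Hba-2, were 2 of the 7184 promoter fragments (viewpoints) whose contacts are listed in the data. They were chosen by name, and their contacts made up 6405 of the 47812899 rows of the interaction table, 3440 for Hba-1 and 2965 for Hba-2. Contacts were measured by Nuclear-Titrated (NuTi) Capture-C, in which crosslinked chromatin is cut with DpnII and religated, and ligation products of chosen fragments are pulled down with biotinylated oligonucleotides and sequenced. The 3 libraries form a single group. They were made from ter119+ erythroid cells, selected on beads from the spleens of F1 hybrid (C57BL/6-cross-CBA/J) mice after phenylhydrazine, which destroys red cells and fills the spleen with erythroid precursors. No control cells entered this comparison, so each contact was compared with other fragments at the same distance. Contact data hold no transcript levels, so the labelled cell type could not be checked against marker genes. The value columns are unnamed, and the libraries appear here as a, b and c.

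The adult alpha-globin genes encode the alpha chain of haemoglobin and are among the most strongly transcribed genes of late erythroid cells. They lie on chromosome 11 beside the embryonic zeta-globin gene Hba-x and the theta-globin genes Hbq1b and Hbq1a. Their enhancers, known as R1, R2, R3, Rm and R4, lie upstream, for the most part in introns of Nprl3, a housekeeping gene that regulates mTORC1 signalling, and are bound by erythroid transcription factors such as GATA1. CTCF sites flank the locus on both sides and are known to limit how far its contacts reach.

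The Hba-1 viewpoint was the DpnII fragment at chr11:32182969-32183821 of mm9 (853 bases), which spans the promoter and the start of Hba-a1 (ENSMUSG00000069919). The Hba-2 viewpoint was the fragment at chr11:32195804-32196638 (835 bases), which spans the same parts of Hba-a2 (ENSMUSG00000069917). Their midpoints are 12.8 kb apart. The 2 fragments are near-identical in sequence: aligned to each other, they matched at 832 of 853 positions (97.5%), with 3 substitutions and 18 gap positions, and the longest run without a difference was 501 bases. The 70 bases at either end, the length of a capture oligonucleotide in this study, were the same in both. These ends are printed first, at the position of Hba-1 and with the DpnII site in capitals, because they are the stretches next to the ligation junctions. The 100 bases with the most substitutions follow for each viewpoint, with the differing bases in capitals. All are from the plus strand of mm9.
Left end of both viewpoints, chr11:32182969-32183038: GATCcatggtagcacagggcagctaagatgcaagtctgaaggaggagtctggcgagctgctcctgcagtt
Right end of both viewpoints, chr11:32183752-32183821: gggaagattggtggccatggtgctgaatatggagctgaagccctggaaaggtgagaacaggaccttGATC
Hba-1, chr11:32183176-32183275: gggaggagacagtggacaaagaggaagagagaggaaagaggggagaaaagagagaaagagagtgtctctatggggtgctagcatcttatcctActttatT
Hba-2, chr11:32196011-32196110: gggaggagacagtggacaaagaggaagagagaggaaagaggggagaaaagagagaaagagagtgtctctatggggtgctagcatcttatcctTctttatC

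The listed contacts of the 2 promoters largely coincided, fragment by fragment. An event is a unique ligation between the viewpoint and another fragment of the same chromosome. Hba-1 had 1705, 2823 and 2841 such events in libraries a, b and c, and Hba-2 had 1468, 2359 and 2431. At fragments 1 to 10 Mb away, where any given fragment is rarely hit, 80.6%, 77.3% and 81.0% of the Hba-2 events in libraries a, b and c coincided with a Hba-1 event at the same fragment of the same library. Between different libraries the share was 1.45% (Hba-1 in a, Hba-2 in b), 3.62% (b and c) and 2.26% (a and c). Within 1 Mb of both, 3076 events were matched in the same library, which was 78.0% of the Hba-1 events and 92.0% of the Hba-2 events. A further 866 events were listed for Hba-1 alone and 266 for Hba-2 alone. At each fragment of each library the smaller of the 2 counts was taken as matched. The excess of the larger count was taken as listed for that promoter alone. From 20 kb to 1 Mb, counts of the 2 promoters at the same fragment differed by less than sampling noise in each library, with a chi-square per fragment of 0.343, 0.328 and 0.319, against 0.971, 0.961 and 1.01 between different libraries. The 2 profiles are therefore not treated as independent. How coinciding events came to be listed for both viewpoints was not tested.

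The matched share differed along the locus. In the enhancer stretch upstream of Hba-x, 840 events were matched, 172 were listed for Hba-1 alone and 35 for Hba-2 alone. Between the 2 viewpoints, 287 were matched, with 29 and 22 unmatched. From 7 kb upstream of Hba-x to Hba-1, 421 were matched, 176 belonged to Hba-1 alone and 6 to Hba-2 alone. There Hba-2 thus rarely had the higher count at a fragment, with Hba-1 the nearer viewpoint. Between different libraries, 44.5% to 60% of the Hba-2 events from 20 kb to 1 Mb were matched, and no such share was formed by region. Downstream of Hba-2, 547 were matched, 179 belonged to Hba-1 alone and 84 to Hba-2 alone.

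**Figure D1:**
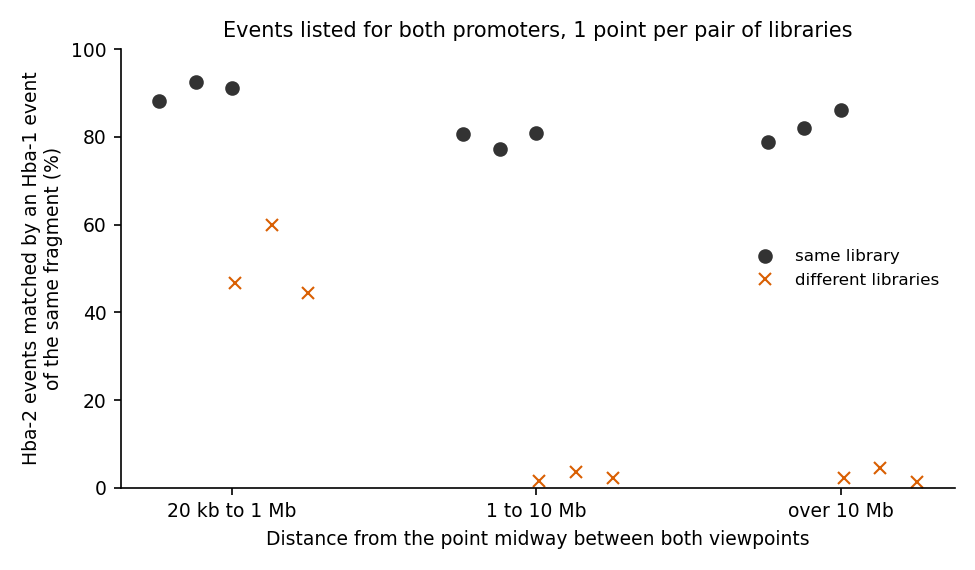
Share of Hba-2 events that coincide with a Hba-1 event at the same fragment, in percent (y axis), by range of distance from the point midway between the viewpoints (x axis), with 1 point for each pair of libraries. Within the same library the shares are 77.3% to 92.6%, and between different libraries they are at most 60% within 1 Mb and at most 4.44% beyond.

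Identical sequence also marked the neighbourhood of the viewpoints. The 275-base fragments that follow each viewpoint are 100% identical, and the next, of 593 bases, are 99.5% identical. On the copy beside Hba-2, Hba-1 had 101 events at the 275-base fragment and 90 at the 593-base fragment, and on the copy beside itself it had 0 at both. Hba-2 showed the converse, with 92 and 88 events on the copy beside Hba-1 and 0 on its own. At the next fragments (432 and 405 bases), which are 59.4% identical, Hba-1 had 39 events on its own side and 41 on the other, and Hba-2 had 43 and 38. In all, 219 of the 1100 listed fragments within 250 kb of Hba-x shared a 30-base word with another fragment of the locus, and so did 23 of the 42 listed from the end of Hba-x to the end of Hbq1a. Fragments that were themselves viewpoints were listed in 0 contacts, so the contact of the Hba-1 fragment with the Hba-2 fragment was not analysed here.

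Depth was moderate for these promoters. Over all viewpoints the libraries held 18230099, 34428035 and 34233560 events, and 55.3% of viewpoints had fewer events than Hba-1 and 48.6% fewer than Hba-2. For the 2 promoters, chi-square per fragment between libraries ran from 0.944 to 1.00 and r2 over 400 windows of 5 kb from 0.951 to 0.973, while library a had a larger share of its events at 10 to 100 kb than b and c (below). The study describes its 3C libraries as independent, and nothing says that they came from separate mice. Over all viewpoints, b and c differed by no more than sampling noise (chi-square per fragment 1.00, against 1.03 and 1.02 with library a), so their mean was counted as 1 sample beside library a, and n = 2 below. At these 2 promoters alone, the chi-square did not set b and c apart from the other pairs, and the result that turns on this choice is given with all 3 libraries as samples too. Intervals on sums and shares cover counting error only.

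Contacts of both promoters were concentrated at 10 to 100 kb. Of all Hba-1 events on the chromosome, 44.0%, 37.9% and 37.9% fell in this range in libraries a, b and c, a mean of 41.0% ± 4.34 (SD, n = 2). For Hba-2 the shares were 44.4%, 40.2% and 41.3%, a mean of 42.6% ± 2.58 (SD, n = 2). The median viewpoint of the series had 15.9% there, and 99.9% of 6718 viewpoints with at least 1000 events lay below each of the 2 promoters. The share at 1 to 10 Mb was low: 7.66% ± 1.30 of Hba-1 events and 7.66% ± 1.87 of Hba-2 events (SD, n = 2) lay 1 to 10 Mb away, where the median viewpoint had 21.4%. Beyond 10 Mb lay 27.7% ± 2.80 and 26.8% ± 2.12 (SD, n = 2) against a median of 34.1%, and 25.9% and 21.9% of viewpoints had less. The other erythroid promoters that the study displays were also rich in contacts at 10 to 100 kb, with 33.2% ± 1.25 for the beta-globin promoter Hbb-b1, 32% ± 0.562 for Hbb-b2 and 31.5% ± 2.81 for Slc25a37, which encodes the mitochondrial iron importer mitoferrin (SD, n = 2). The Hbb-b1 and Hbb-b2 values are not independent either, since 90.1%, 90.6% and 91.0% of the Hbb-b2 events at 1 to 10 Mb coincided with a Hbb-b1 event of the same library. These differences between promoters are descriptions, with no test.

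To set a contact against its distance, each count was divided by the count expected for a fragment at that distance from a viewpoint of that total (observed over expected). The stretch from 32 to 7 kb upstream of Hba-x (chr11:32144400-32169400), which holds the 5 enhancers, was contacted well above expectation. From Hba-1 it received 236, 379 and 397 events in libraries a, b and c, or 2.64, 2.95 and 3.06 times the expected count. From Hba-2 it received 212, 321 and 342 events, or 3.87, 4.15 and 4.19 times. All libraries were alike in this. The means were 2.82 ± 0.257 for Hba-1 and 4.02 ± 0.214 for Hba-2 (SD, n = 2). In the stretch of the same length and distance on the other side of the viewpoint, the ratio of the summed counts was 1.26 (95% interval 1.14 to 1.38) for Hba-1 and 0.493 (0.393 to 0.612) for Hba-2.

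The number of events differed far less than the ratio. Per 100000 events of the viewpoint, the stretch took 13842, 13425 and 13974 from Hba-1 in libraries a, b and c, and 14441, 13608 and 14068 from Hba-2. Hba-2 was slightly higher within each library, and the means were 13771 ± 100.4 and 14140 ± 427 (SD, n = 2). For Hba-1, libraries b and c lay farther apart than this SD shows, since they were averaged first. The expected sums were 347 for Hba-1 and 214 for Hba-2, which lies farther away. Since 840 of the 1012 events from Hba-1 and of the 875 from Hba-2 were matched, the 2 ratios rest on mostly coinciding events divided by different expectations.

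**Figure D2:**
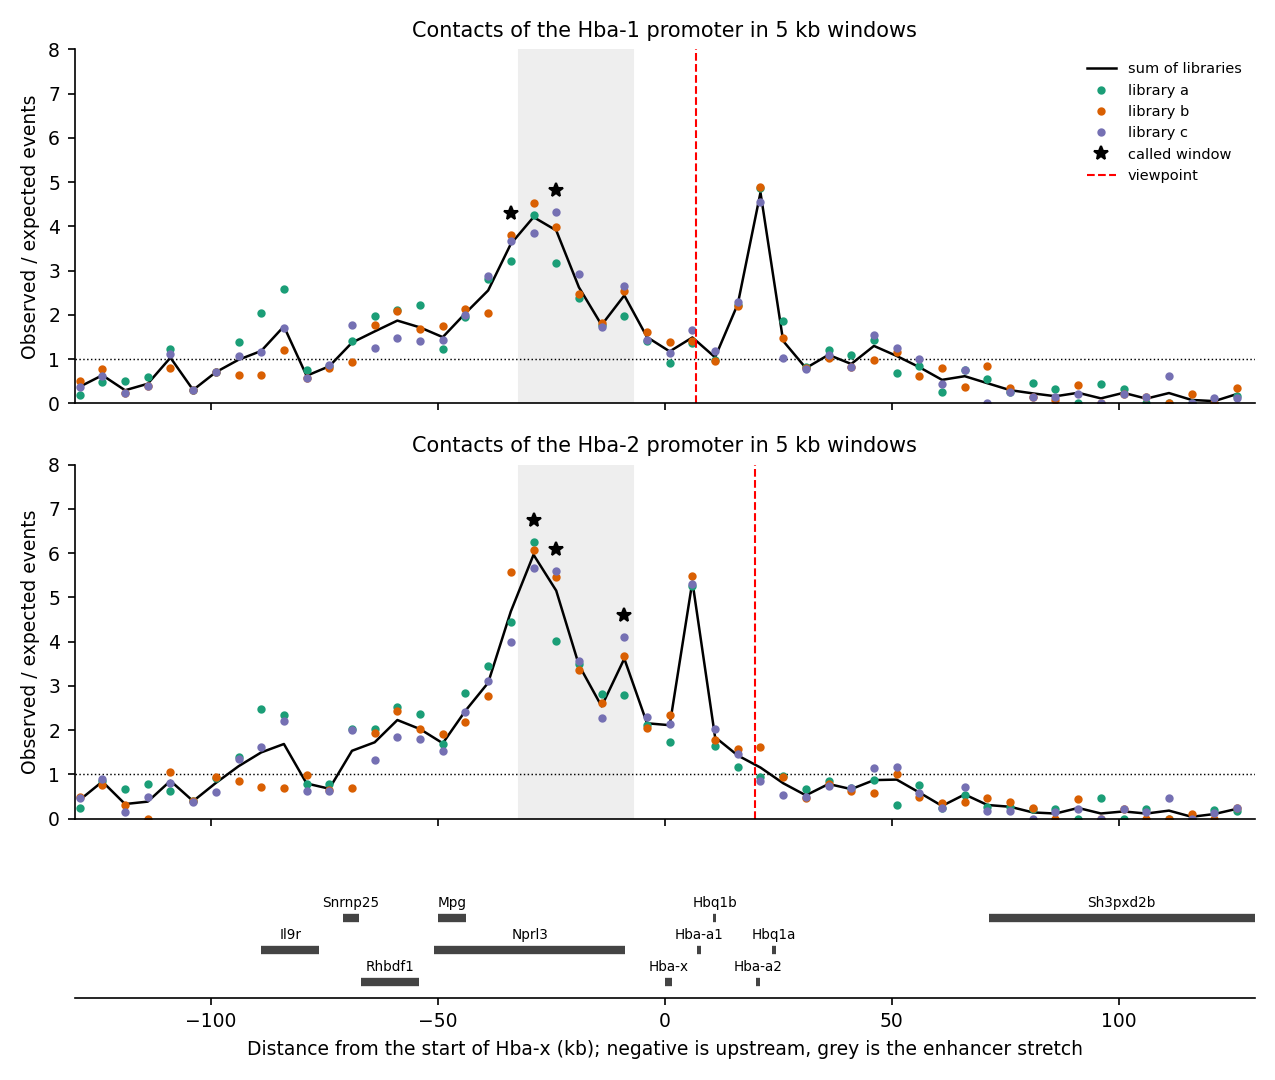
Observed over expected count (y axis) in 5 kb windows around the alpha-globin locus, by distance from the start of Hba-x in kb (x axis, negative upstream), for Hba-1 (top) and Hba-2 (middle), with genes below. Lines are the summed counts, points the 3 libraries, stars the called windows, dashed lines the viewpoints and grey the enhancer stretch. Both profiles peak over Nprl3 (4.21 for Hba-1, 5.96 for Hba-2) and at the other alpha-globin gene (4.76 and 5.36).

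Among the enhancers, R1, 31 kb upstream of Hba-x and one of the elements known to carry most of the activity, had the highest ratio of summed counts from both promoters. In library a, R2 was higher from Hba-1 (4.20 against 3.60). From Hba-1, R1 (chr11:32144400-32146400) received 8, 17 and 23 events, 3.60, 5.22 and 7.0 times the expected count, and 5.48 times in the sum (95% interval 4.04 to 7.27). From Hba-2 it received 10, 18 and 21 events, 6.88, 8.53 and 9.43 times, and 8.46 in the sum (6.26 to 11.2). In the mirror windows the sums were 1.90 and 0.228. R1 was lowest in library a for both promoters, and its window holds only 2 fragments.

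R2, the other strong element, 26 kb upstream (chr11:32149400-32151400), received 36, 48 and 45 events from Hba-1, which was 4.20, 3.83 and 3.56 times the expected count. From Hba-2 it received 31, 40 and 38, or 5.62, 5.08 and 4.58 times. The summed ratios were 3.83 (3.2 to 4.55) and 5.03 (4.13 to 6.06), against 0.771 and 0.726 in the mirror windows. With 7 fragments, R2 was the most finely cut of the elements and took the most events.

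R3, 21 kb upstream (chr11:32154400-32156400), which carries enhancer marks but little known activity, had ratios of 3.27, 3.39 and 3.12 from Hba-1. From Hba-2 the ratios at R3 were 4.56, 4.24 and 3.81. The sums were 3.26 (2.54 to 4.12) and 4.16 (3.15 to 5.38). Rm, 12 kb upstream (chr11:32163400-32165400), had 2.18, 3.07 and 3.44 from Hba-1 and 2.84, 5.05 and 5.43 from Hba-2, with sums of 2.98 (2.15 to 4.02) and 4.63 (3.28 to 6.36). R4 lies 8 kb upstream (chr11:32167400-32169400), and its window is the only one of the 5 that reaches outside Nprl3, for the most part. The window holds the annotated 5′ end of that gene (position 32167707), so contacts with R4 and with the Nprl3 promoter could not be told apart. R4 had 2.72, 2.86 and 3.62 from Hba-1 and 4.45, 4.60 and 5.50 from Hba-2. Its sums were 3.11 (2.48 to 3.85) and 4.91 (3.81 to 6.22).

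Every one of the 5 elements exceeded its expected count from both promoters in all 3 libraries. The intervals of R2, R3, Rm and R4 overlapped one another. That of R1 lay clear of R2, R3 and R4 from Hba-2, and of Rm and R4 from Hba-1. The order depended on how the expectation was formed: with an expected count per base of fragment length, R2 became the highest (7.81 from Hba-1 and 10.4 from Hba-2), R1 fell to 2.14 and 3.31, and Rm to 0.945 and 1.42. For Hba-2 the mirror windows of R3, Rm and R4 were at 0.583, 0.426 and 0.344. For Hba-1 the mirror windows of Rm and R4 were at 2.27 and 3.13, near the elements' own ratios, and the mirror of R4 lies just beyond Hba-a2. The windows 40 to 37 kb upstream, which hold the CTCF sites 39 and 38 kb upstream of Hba-x, had 2.60 (2.08 to 3.2) from Hba-1 and 3.14 (2.46 to 3.95) from Hba-2, and their mirrors 1.27 and 0.193.

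**Figure D3:**
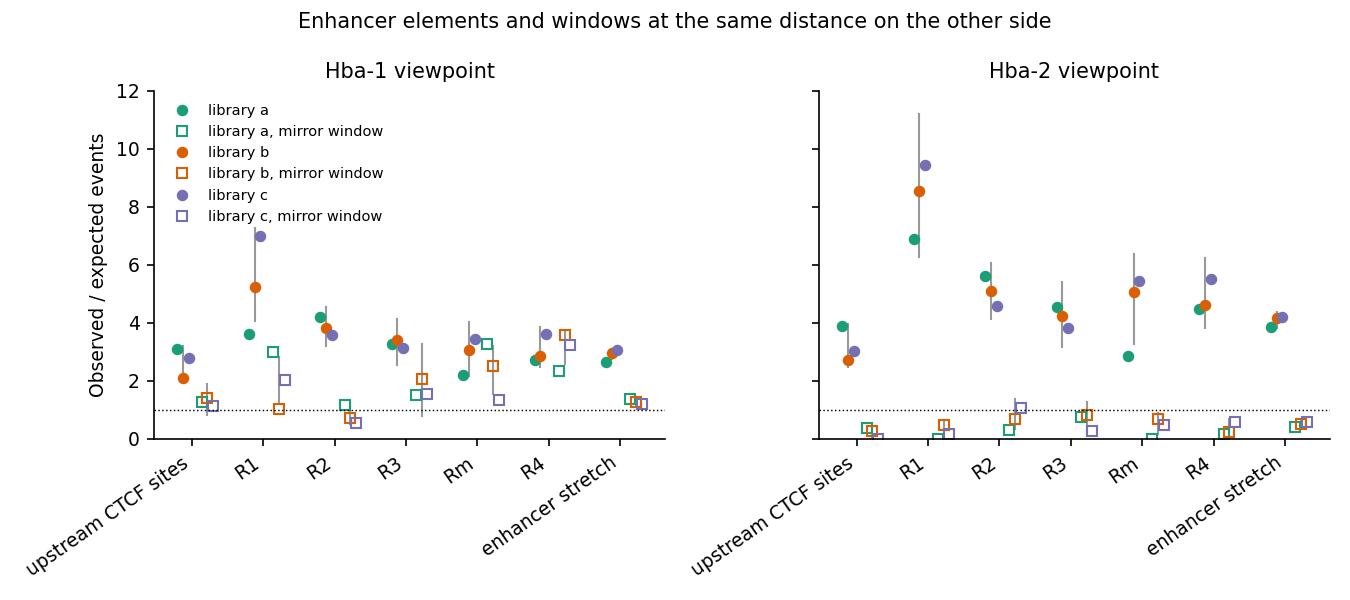
Observed over expected count (y axis) at the upstream CTCF window, the 5 enhancers and the whole enhancer stretch (x axis), for Hba-1 (left) and Hba-2 (right). Filled points are the 3 libraries, open squares the mirror window on the other side of the viewpoint, grey lines the 95% interval of the summed counts, and the dotted line is 1. Every library lies above 1 at each element, and R1 from Hba-2 is highest, at 6.88 to 9.43.

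Single fragments and fixed windows were tested against the expected count with a negative binomial model, with Benjamini-Hochberg adjustment over all viewpoints and a required excess in each library. Of 28839844 viewpoint and fragment pairs, 248 (0.00086%) were called. Hba-1 had 0 of its 4299 fragments called and Hba-2 had 3 (0.0698%). A pair of these were the identical 275-base and near-identical 593-base fragments in Hba-a1 at chr11:32183836-32184110 and chr11:32184111-32184703, with 92 and 88 events, 11.6 and 10.2 times the expected count (adjusted p = 1.1e-08 and 2.2e-07). The remaining one, chr11:32146901-32148393, lies within Nprl3 at -28.8 kb from Hba-x and overlaps an exon, between R1 and R2. It had 12, 12 and 11 events in libraries a, b and c, 11.3 times the expected count (95% interval 7.87 to 15.7, adjusted p = 0.0074). From Hba-1 it had 11, 13 and 12 events, 8.22 times the expected count (5.76 to 11.4), and was not called (adjusted p = 0.37). It shares no 30-base word with another fragment of the locus. The copies in Hba-a2 had 101 and 90 events from Hba-1, 10.4 and 9.29 times the expected count, and were not called (adjusted p = 0.66 and 0.68). Counts were thus close where calls differed, and 0 against 3 called fragments was not read as a difference in contacts.

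In windows of 5 kb, 802 of 2660521 (0.0301%) were called. Hba-1 had 2 of 400 (0.5%) and Hba-2 had 3 of 400 (0.75%), all upstream and within or at the edge of Nprl3. For Hba-1 these were chr11:32140001-32145000, with 30, 52 and 51 events and a ratio of 3.60 (adjusted p = 0.048), and chr11:32150001-32155000, with 53, 97 and 106 events and a ratio of 3.91 (adjusted p = 0.0062). For Hba-2 they were chr11:32145001-32150000, with 44, 61 and 60 events and a ratio of 5.96 (adjusted p = 0.00043), and chr11:32150001-32155000, with 44, 85 and 92 events and a ratio of 5.15 (adjusted p = 7.8e-05). The last was chr11:32165001-32170000, over R4 and the 5′ end of Nprl3, with 43, 79 and 93 events and a ratio of 3.61 (adjusted p = 0.020). The window from 32150001 was thus called from both promoters, whose events mostly coincide. The window from 32145001 stood at 4.21 from Hba-1 and was not called there (adjusted p = 0.75), and the dispersion of the model was set for each distance. The windows at the other alpha-globin gene, at 4.76 from Hba-1 and 5.36 from Hba-2, were not called (adjusted p = 0.79 and 0.77). With the top 1% of counts left out of the dispersion, 9266 windows of the series (0.348%) were called, 4 of them for Hba-1 and 7 for Hba-2. On a 10 kb grid there were 0 and 1, and at an adjusted p under 0.01 there were 1 and 2. Without library b the series total was 466, with 1 for Hba-1 and 3 for Hba-2, and without library c it was 469, with 1 and 2.

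The fragments with the highest ratios 10 kb or more from each promoter lay in the other alpha-globin gene or in Nprl3. For Hba-1, after the copies in Hba-a2 (10.4 and 9.29) and the Nprl3 fragment above, they were chr11:32142084-32144130 in an intron (4, 10 and 9 events, 5.72 times the expected count) and chr11:32145277-32146564, an intronic fragment of R1 (3, 10 and 12 events, 5.71 times). For Hba-2, after the called fragments, they were chr11:32151060-32151879, an intronic fragment at the edge of R2 (3, 12 and 12 events, 8.72 times), and the same R1 fragment (4, 10 and 11 events, 8.63 times). The R1 fragment and chr11:32142084-32144130 each share a 30-base word with another fragment of the locus, and without such fragments the R1 window had 5.25 from Hba-1 and 8.29 from Hba-2. None of these intronic fragments was called, and at R1 and R2 library a had fewer events than b and c.

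Stretches of 240 bases from 3 of these fragments are printed because the R1 fragment and the called Nprl3 fragment were among the 5 highest from both promoters, and the R2 fragment among those from Hba-2. The fragment chr11:32142084-32144130, among the 5 highest from Hba-1 alone, is not printed. Capitals mark AGATAA or its reverse complement TTATCT, the core of a GATA site, searched on both strands. The R1 and R2 stretches were placed within their fragments where matches were most frequent, so their own counts, 2 and 1, have no fair background. The called Nprl3 fragment had 0 matches over all its 1493 bases, and its first 240 bases are printed. In the fixed 2 kb windows there were 2 matches at R1 and at R2, and 37.2% of 2 kb tiles of chromosome 11 held at least as many. Rm had 3 (at least as many in 16.1% of tiles), and R3 and R4 had 1 each (70.3%).
R1 fragment, chr11:32145688-32145927: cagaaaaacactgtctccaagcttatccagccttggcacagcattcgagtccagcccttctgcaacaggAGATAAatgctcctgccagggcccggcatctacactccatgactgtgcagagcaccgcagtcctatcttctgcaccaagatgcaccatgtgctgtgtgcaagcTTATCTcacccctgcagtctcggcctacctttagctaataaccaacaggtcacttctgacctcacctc
R2 fragment, chr11:32151060-32151299: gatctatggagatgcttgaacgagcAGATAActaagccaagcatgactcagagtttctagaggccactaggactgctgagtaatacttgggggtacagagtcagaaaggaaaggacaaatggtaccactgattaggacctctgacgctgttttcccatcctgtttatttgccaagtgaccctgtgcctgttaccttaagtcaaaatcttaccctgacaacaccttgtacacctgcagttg
Called Nprl3 fragment, chr11:32146901-32147140: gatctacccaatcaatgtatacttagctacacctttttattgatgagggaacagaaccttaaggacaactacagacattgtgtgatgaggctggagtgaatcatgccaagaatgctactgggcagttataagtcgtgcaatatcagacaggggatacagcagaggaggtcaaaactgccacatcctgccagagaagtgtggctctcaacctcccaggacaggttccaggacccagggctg
These matches describe the letters and say nothing of binding.

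Over gene bodies the ratio was highest in the other alpha-globin gene, at 9.86 (8.51 to 11.4) in Hba-a2 from Hba-1 and 10.8 (9.31 to 12.5) in Hba-a1 from Hba-2, which rests on the shared-sequence copies. Among the genes outside the globin cluster, it was highest in Nprl3. Nprl3 (chr11:32125628-32167707) received 307, 484 and 500 events from Hba-1 and 279, 414 and 425 from Hba-2, with summed ratios of 2.73 (2.58 to 2.88) and 3.64 (3.43 to 3.86). The part of Nprl3 outside the enhancer stretch still had 2.37 (2.14 to 2.63) and 2.89 (2.58 to 3.23). Mpg, which encodes a DNA repair glycosylase and overlaps the 3′ end of Nprl3, had 1.70 (1.34 to 2.13) from Hba-1 and 2.09 (1.61 to 2.68) from Hba-2. Rhbdf1, a rhomboid-family membrane protein gene, had 1.63 (1.38 to 1.90) and 1.86 (1.56 to 2.20). These upstream neighbours were thus above expectation with intervals clear of 1.

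Of the other upstream genes, Snrnp25 and Il9r had intervals that included 1, and Nsg2, the farthest, lay far below expectation. Snrnp25, which encodes a protein of the minor spliceosome, had 8, 7 and 13 events from Hba-1 and 8, 4 and 14 from Hba-2, with summed ratios of 1.22 (0.810 to 1.76) and 1.48 (0.964 to 2.16). Il9r, the interleukin-9 receptor gene, had 0.973 (0.744 to 1.25) and 1.11 (0.835 to 1.45), on 25, 16 and 20 events from Hba-1 and 19, 14 and 21 from Hba-2 in libraries a, b and c. Nsg2, a neuronal gene, had 0.0716 (0.0309 to 0.141) and 0.134 (0.0690 to 0.233), on 8 and 12 events.

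Within the globin cluster the ratios of the other members varied by promoter. Hba-x, the embryonic gene, had ratios of 1.28 (1.06 to 1.53) from Hba-1 and 2.11 (1.66 to 2.64) from Hba-2. Hbq1b had 1.42 (1.07 to 1.86) and 2.87 (2.18 to 3.71), and Hbq1a had 2.76 (1.73 to 4.18) and 1.47 (0.931 to 2.20). Each theta-globin gene thus had the lower ratio from the promoter nearer to it. The events were nearly as many from both promoters, 54 and 58 at Hbq1b and 22 and 23 at Hbq1a. The expected counts differed more, at 37.95 and 20.2 for Hbq1b and 7.96 and 15.7 for Hbq1a, so the contrast rests on the expectations. In this cluster 23 of 42 fragments share sequence. Downstream genes were far below expectation. Sh3pxd2b, an invadopodia adaptor gene, had 0.190 (0.146 to 0.243) and 0.179 (0.136 to 0.232), Ubtd2 had 0.218 (0.151 to 0.305) and 0.201 (0.133 to 0.290), and Efcab9 had 0.374 (0.122 to 0.874) and 0.310 (0.0846 to 0.795), on 5 and 4 events. From 100 kb to 1 Mb lay 10.7% of all Hba-1 events and 11.9% of all Hba-2 events, against 19.6% for the median viewpoint. Windows about as far away as Ubtd2, Efcab9 and Nsg2 mostly had low ratios on either side. The low ratios of these genes are thus not read as particular to them.

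The edges of the profile were sought as the border of the 5 kb grid with the largest fall in ratio from the 20 kb on the globin side to the 20 kb beyond, given in kb from Hba-x with negative values upstream. Only borders within 200 kb of Hba-x were searched, so nothing is said of edges farther out. Downstream, the fall for Hba-1 was largest at 73.6 kb, from 0.626 to 0.225 (77 and 29 events, 1.48 on the log2 scale), with the border at 68.6 kb next at 1.48. For Hba-2 it was largest at 23.6 kb, at the start of Hbq1a, from 2.5 to 0.660 (771 and 271 events, 1.92 on the log2 scale). The 20 kb before that border reach across the viewpoint to its upstream side and take in the shared-sequence copies in Hba-a1 (5.36 in their window), while the windows on either side of the border had 1.15 and 0.799, so this fall was not read as a downstream edge. The next border was at 68.6 kb (1.5 on the log2 scale). Both promoters had a fall near 68.6 kb, just before the start of Sh3pxd2b, but their events there mostly coincide, so these falls are not independent. The 5 kb windows on either side of 68.6 kb had 0.612 and 0.453 for Hba-1 and 0.545 and 0.307 for Hba-2, with overlapping intervals. No sharp step was therefore placed there. By single libraries the Hba-1 edge was at 98.6, 78.6 and 68.6 kb and the Hba-2 edge at 173.6, 103.6 and 68.6 kb, so the position was not fixed by each library alone.

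Upstream, the largest fall lay at -181.4 kb for Hba-1 (14 and 2 events) and at -186.4 kb for Hba-2 (11 and 3 events), where counts were too low to place an edge. Among borders with at least 50 events on the globin side, a minimum added after the data were seen, both had it at -101.4 kb, just beyond Il9r. There the ratio fell from 1.13 to 0.470 for Hba-1 (102 and 41 events) and from 1.31 to 0.462 for Hba-2 (90 and 31 events), 1.27 and 1.5 on the log2 scale. The 5 kb windows on either side of it had 0.703 and 0.301 for Hba-1 and 0.805 and 0.394 for Hba-2, with overlapping intervals. The next window beyond stood at 1.03 and 0.853, so no step was placed at that border. All 3 libraries had a fall at that border, of 1.49, 0.904 and 1.34 for Hba-1 and 1.59, 0.970 and 1.79 for Hba-2. The border was chosen on the sum of these libraries, so this is not a separate check. Without the minimum, the largest upstream fall in libraries a, b and c lay at -101.4, -176.4 and -176.4 kb for Hba-1. For Hba-2 it lay at -166.4, -176.4 and -151.4 kb. Near the upstream CTCF sites, the ratio fell across position 32135000 from 3.53 to 1.81 for Hba-1 and from 4.63 to 2.14 for Hba-2 (0.96 and 1.11 on the log2 scale). The 20 kb on the globin side of that position takes in R1 and R2. The 5 kb windows on either side of it had 2.55 and 2.04 for Hba-1 and 3.07 and 2.44 for Hba-2, with overlapping intervals. No step at the CTCF sites was therefore read from this fall.

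Both profiles leaned upstream. From 2.5 kb to 1 Mb, 64.1%, 66.6% and 66.2% of Hba-1 events in libraries a, b and c lay upstream, 65.8% in the sum (95% interval 64.4 to 67.2). For Hba-2 the shares were 82.1%, 83.2% and 83.9%, with 83.2% in the sum (82.0 to 84.4). About equal numbers of fragments lay on either side, 51.2% upstream for Hba-1 and 51.1% for Hba-2. The lean was greatest at 50 to 100 kb, at 84.4% (81.1 to 87.4) for Hba-1 and 93.7% (91.5 to 95.4) for Hba-2, and was still 74.7% and 75% from 250 kb to 1 Mb. Upstream events of that far range were not spread evenly. At chr11:31730001-31735000 and chr11:31735001-31740000, Hba-1 had 20 and 18 events against 6.21 expected in each. Hba-2 had 17 and 12 there, against 5.29 in each. In the former window, library a lay below expectation for both promoters. Of 6718 viewpoints, 843 (12.5%) were at least as uneven as Hba-1 and 15 (0.223%) as uneven as Hba-2, and the median viewpoint had 56.8% on its larger side. Hba-2 has Hba-1 and its shared-sequence copies upstream of it, and Hba-1 has those of Hba-2 downstream. Without fragments that share a 30-base word, Hba-1 had 74.3% upstream. The share of Hba-2 stayed from 82.5% to 84.7% in every alternative tried.

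**Figure D4:**
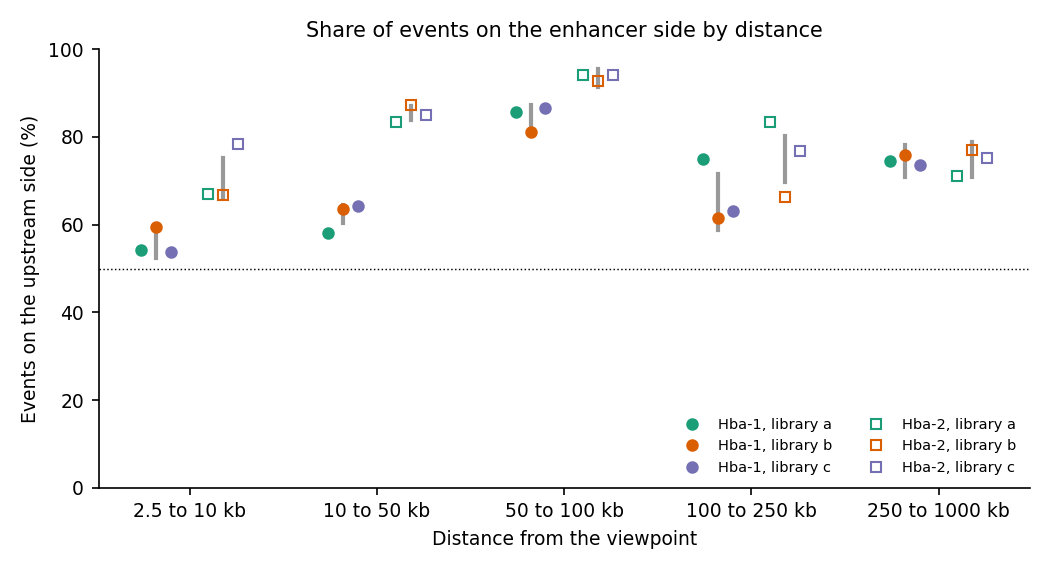
Share of events on the upstream side in percent (y axis) by range of distance from the viewpoint (x axis), for Hba-1 (filled) and Hba-2 (open) in the 3 libraries, with grey lines for the 95% interval of the sum and a dotted line where the sides are equal. The summed share is higher for Hba-2 in ranges up to 250 kb (93.7% against 84.4% at 50 to 100 kb), and the 2 meet from 250 kb on (75% and 74.7%).

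The 2 promoters were compared window by window with limma on the log2 ratio of observed to expected counts, with library as a block. Of 397 windows, 0 passed an adjusted p of 0.05 (0% called), 49 had an unadjusted p under 0.05, and the lowest adjusted p was 0.23. Among the 49 were windows with 0 events from both promoters, such as chr11:31405001-31410000 (unadjusted p = 0.033), where only the expected counts differed. The comparison had 1 residual degree of freedom, and on simulated windows it recovered 0 of 40 changed 4-fold and 35 of 40 changed 16-fold. The simulated promoters had independent events, unlike the coinciding events of the real pair, so no limit on the size of a missed difference is given. With 3 libraries as samples 187 windows passed, 179 of them higher from Hba-2. Of the 187, 165 had under 10 events of both promoters together, as did 317 of all 397 windows, while 5 overlapped the enhancer stretch. Where the expected count of Hba-2 is the lower one, a window with equal events from both counts as higher from Hba-2. The direction and number of the windows that passed were thus not read as a difference in contacts.

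The view from other promoters of the locus showed which contacts were shared. The theta-globin promoters Hbq1b and Hbq1a, which lie in the same cluster, contacted the enhancer stretch at 2.5, 2.53 and 2.51 times and at 2.5, 2.63 and 2.62 times the expected count in libraries a, b and c. Both were below Hba-1 in each library and in the sum, at 2.52 (2.42 to 2.62) and 2.59 (2.48 to 2.71) against 2.92 (2.74 to 3.10) for Hba-1 and 4.09 (3.83 to 4.38) for Hba-2. At R1 the order was not the same: the theta-globin promoters had 5.80 (4.88 to 6.84) and 6.15 (5.15 to 7.28) against 5.48 (4.04 to 7.27) for Hba-1. At the upstream CTCF window they had 3.55 (3.19 to 3.94) and 3.95 (3.55 to 4.39), above the 2.60 of Hba-1 and the 3.14 of Hba-2, though the interval of Hba-2 (2.46 to 3.95) overlapped both and that of Hba-1 overlapped Hbq1b. Over the whole enhancer stretch, the Mpg promoter, in the same row of genes, had 0.926 (0.789 to 1.08) and Snrnp25 had 1.16 (0.976 to 1.38). Cpeb4, at -406.1 kb, had 1.43 (1.14 to 1.78), with 0.792 in library a, and Fbxw11, downstream, 1.85 (1.04 to 3.05) on 15 events. The enhancer stretch was thus rich in contacts from globin promoters, while the intervals of the Mpg and Snrnp25 promoters beside it included 1. At the upstream CTCF window, Mpg had 1.61 (1.28 to 1.99) and Snrnp25 1.68 (1.22 to 2.27), both above 1 in each library. Within the stretch, Mpg had 2.05 (1.33 to 3.03) at R3 and 0.467 (0.241 to 0.815) at R2. Hbq1b and Hbq1a also shared events with each other, 52.8% to 55.6% of the Hbq1a events from 1 to 10 Mb in the same library.

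**Figure D5:**
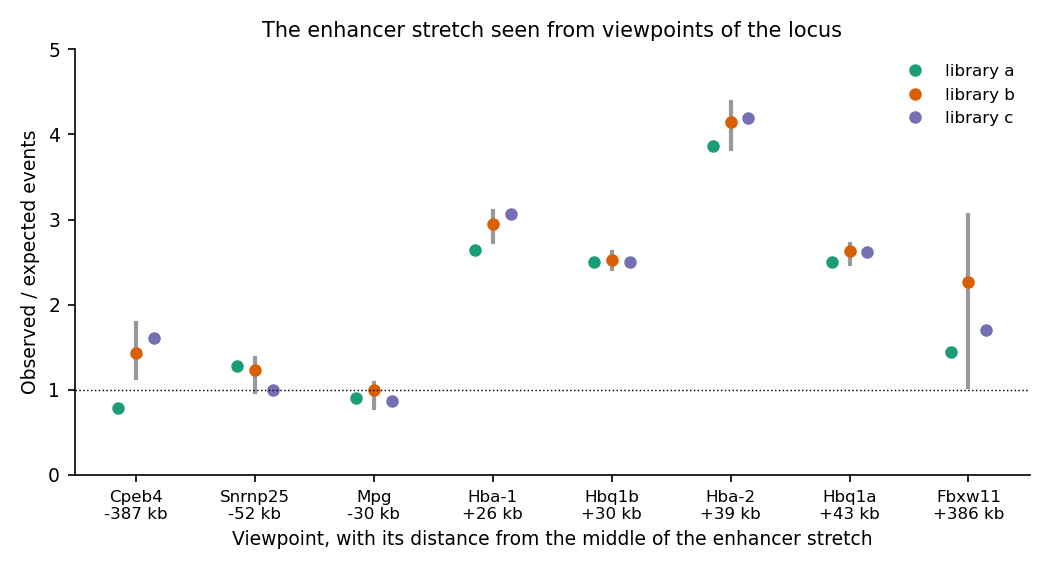
Observed over expected count of the enhancer stretch (y axis) seen from each viewpoint within 500 kb of Hba-x (x axis, with the distance of each viewpoint from the middle of the stretch). Points are the 3 libraries, grey lines the 95% interval of the sum, and the dotted line is 1. In the sum Hba-2 (4.09) and Hba-1 (2.92) are highest, followed by Hbq1a (2.59) and Hbq1b (2.52), and Mpg is lowest (0.926).

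The profile most like that of Hba-2 over shared 5 kb windows was that of Hba-1 (Pearson r = 0.868 over 397 windows), followed by Hbq1a (0.800 over 399) and Hbq1b (0.764 over 398). Mpg and Snrnp25 followed at 0.389 and 0.305, below Cpeb4 at 0.558. Over the 40 windows within 100 kb the order turned: Hbq1a (0.769) came before Hba-1 (0.752) for Hba-2, and Hba-1 was more like Hbq1b (0.833) than like Hba-2. These values are across windows that share libraries, and for Hba-1 mostly coinciding events, so they are given without a test. Among the other erythroid promoters, Hbb-b1 had 6 fragments and 5 windows called, Hbb-b2 had 3 and 2, and Slc25a37 had 0 and 1. The fragments tested were 4089, 4092 and 4190. Over the whole series, 0.00086% of fragment pairs and 0.0301% of windows were called. Their highest windows stood at 7.34, 6.17 and 3.94 times the expected count, against 4.76 for Hba-1 and 5.96 for Hba-2. The Hba-1 window holds the shared-sequence copies in Hba-a2, whereas that of Hba-2 lies over Nprl3, where the highest Hba-1 window stood at 4.21.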

How the data were processed

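Promoter contacts were measured in 3 NuTi Capture-C libraries of ter119+ erythroid cells. Per the labels and the study's methods, the authors trimmed reads with Trim Galore, aligned them to mm9 with Bowtie (versions not given in the sources used here), removed PCR duplicates and counted unique ligation events. The deposited signal is events per 100000 cis events of the viewpoint and library. Counts were worked back from its smallest value (100% whole within 0.01). Positions were read from mm9 DpnII fragments, and sequences came from that genome.

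Expected counts were the mean rate of 50 distance bins (2.5 kb to 1 Mb) over 6718 viewpoints with at least 1000 events, multiplied by the viewpoint's total in range. Poisson and binomial intervals are exact. A pair was called at an adjusted p under 0.05 with an excess in each library, and the authors' own caller, peaky, was not run. Scripts used Python 3.11.15, scipy 1.17.1 and limma 3.58.1 and were tested on simulated data. Named items were the 2 promoters, the enhancers, genes within 250 kb, viewpoints within 500 kb, all calls and the 5 fragments of each promoter with the highest ratio at 10 kb or more and at least 10 events. The promoters and lists were chosen with earlier results of these data known. Alternatives for the dispersion, grid, expectation, shared sequence and libraries were tried.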

Additional observations from a re-analysis of the deposited data

How the results depend on the processing

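No paired analysis was possible because there was 1 group, so no replicate numbers paired libraries across groups. The 2 promoters were compared with library as a block. Called fragments, of 4299 tested for each promoter, numbered 3 for Hba-1 and 7 for Hba-2 with the top 0.1% left out of the dispersion. They numbered 3 and 13 with the top 1% left out, and 58 and 68 with Poisson counts. Without fragments that share a 30-base word (an alternative added after seeing the data), Hba-2 kept 1. Leaving out 1 library gave 0 for Hba-1 and 2 to 3 for Hba-2. Called windows numbered 4 and 6 with the top 0.1% left out, 4 and 7 with the top 1%, 1 and 2 at an adjusted p under 0.01, 2 and 6 on a 2 kb grid, and 0 and 1 on a 10 kb grid, with 1 to 2 for Hba-1 and 2 to 3 for Hba-2 when 1 library was left out. The cause was not tested. Over all viewpoints, fragments called ran from 171 to 176060 of 28839844, the latter with Poisson counts. Windows of 5 kb called ran from 329 to 9266 of 2660521, the latter with the top 1% left out.

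Edges moved in 15 of 28 alternatives. The upstream edge went to -161.4 kb for both with 40 kb on each side, and to -101.4 kb with at least 50 events. Without 1 library it ran from -186.4 to -181.4 kb for Hba-1 and from -186.4 to -101.4 kb for Hba-2. The downstream edge of Hba-1 went to 28.6 kb (10 kb on each side), 58.6 kb (40 kb) and 68.6 kb (viewpoints scaled to the same total), and ran from 68.6 to 103.6 kb without 1 library. That of Hba-2 went to 133.6 kb (10 kb) and 78.6 kb (40 kb). The upstream share became 67.7% and 84.7% when counted from 10 kb, and 74.3% for Hba-1 without shared-word fragments. The comparison of Hba-2 with Hba-1 called 187 windows with 3 samples and 215 without division by the expected count.

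Of 114 alternatives for the enhancers 87 stayed within the spread, as did 146 of 190 for genes and 85 of 120 for other viewpoints. Ratios crossed 1 for Rm from Hba-1 (0.945 per base of fragment), Il9r when 1 library was left out (0.765 to 1.15 from Hba-1, 0.963 to 1.30 from Hba-2). At the fragments beside Hba-2, the ratio was 1.87 from Cpeb4, 1.92 from Snrnp25, 2.18 from Mpg and 1.27 from Hbq1a. Without shared-word fragments, Cpeb4, Snrnp25 and Mpg fell to 0 there and Hbq1a to 0.577. Beside Hba-1, Hbq1b went from 1.02 to 0.834 with viewpoints scaled to the same total. Without 1 library, Snrnp25 (1.33 with all libraries) ran there from 0.896 to 1.84 and Fbxw11 (1.67) from 0 to 2.62. Few events limit single windows and gene bodies beyond 100 kb.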
